A study of Mus musculus with 2 samples.

Results

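Genomic imprinting leaves a gene active mainly on the copy inherited from the mother or mainly on the copy inherited from the father, and 37 mouse symbols known for this, or for sharing a domain with such genes, were taken by name. Of these, 36 had a row in the gene tables of both libraries, out of 43346 annotated genes, with no threshold on their values. Peg13, a noncoding RNA that lies within Trappc9, had no matching row and was not analysed here. The 36 genes fall in 16 domains: by textbook knowledge 11 are expressed mainly from the maternal allele and 17 mainly from the paternal allele. The other 8 (Copg2, Ppp1r9a, Grb10, Ddc, Gnas, Ube3a, Commd1 and Trappc9) are imprinted only in some tissues or transcripts, or from different alleles in different tissues. The libraries themselves did not tell the parental alleles apart.

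The tissue was limb of B6NCrl mouse embryos at day 14.5, untreated, sequenced as total RNA in 2 libraries that form 1 group. Each library started from 10 ng of RNA above 200 nt with spike-in RNAs, and each sample held the 4 limbs of a pup. There was no condition to compare, so values are given for each library with the mean ± SD (n = 2). The labels call the libraries biological replicates but give both the same numbers for donor, pregnancy and pup, collected on separate days. By these labels alone, the spread between them could be technical in part. The labels also give both samples as pooled from males and females, and the sex-linked genes went against this. Ddx3y, Uty, Eif2s3y and Kdm5d on the Y chromosome had 2868, 1123, 1320.0 and 1320.0 expected counts in replicate 1 and 0 in replicate 2. Xist, the RNA of the inactive X chromosome, had 11.5 counts in replicate 1 and 29957 in replicate 2. These counts also go against the shared pup number. A difference between the libraries therefore cannot be told apart from a difference in sex.

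Replicate 1 held 34193161 expected counts and replicate 2 held 32879425, of which spike-ins took 5.29 and 5.20%. The libraries differed by more than sampling noise, with a chi-square of 12.7 per gene over 19140 genes. Limb markers fitted the label: all 13 limb patterning genes, all 10 cartilage genes and all 12 muscle genes on the lists reached 1 TPM (the length-scaled unit of transcript abundance in the tables) in both libraries. Of 8 placental markers none did, and their summed level was 0.64 TPM in replicate 1 and 0.48 TPM in replicate 2. Each level is an average over all limb cells, so fewer expressing cells and less RNA per cell cannot be told apart.

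An imprinted domain is governed by a control region whose DNA is methylated at CpG sites on a single parental copy, a mark laid down in egg or sperm and kept through early development. Many domains pair protein-coding genes with a long noncoding RNA expressed from the opposite allele. The genes as a class are known for acting on fetal and placental growth: in the parental conflict view, paternally expressed genes tend to promote growth and maternally expressed genes tend to restrain it.

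Promoters of imprinted genes are often rich in CpG, the dinucleotide that carries the mark, and several genes have alternative starts that differ in their imprinting. RefSeq windows of 300 bases (250 before to 50 after a start, build GRCm38.p6) matched 30 of the 36 genes with 47 windows. H19, Cdkn1c, Peg10, Sgce, Impact and Trappc9 had no window. The 8 windows below show the CpG contrast between used and little-used starts of Mest and Grb10, the main and the first start of Gnas, and the starts of Peg3 and Nnat, whose windows sit in regions known to be methylated on the maternal copy. They run 5′ to 3′ along the strand of the gene, with every CpG in capitals.
Mest main start, chr6:30737800-30738099, + strand: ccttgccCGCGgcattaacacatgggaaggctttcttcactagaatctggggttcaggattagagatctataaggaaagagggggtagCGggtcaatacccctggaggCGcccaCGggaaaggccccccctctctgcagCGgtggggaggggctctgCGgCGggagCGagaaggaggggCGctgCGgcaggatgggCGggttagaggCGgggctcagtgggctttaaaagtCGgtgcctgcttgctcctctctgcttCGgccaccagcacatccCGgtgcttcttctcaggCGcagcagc
Mest upstream start, chr6:30733256-30733555, + strand: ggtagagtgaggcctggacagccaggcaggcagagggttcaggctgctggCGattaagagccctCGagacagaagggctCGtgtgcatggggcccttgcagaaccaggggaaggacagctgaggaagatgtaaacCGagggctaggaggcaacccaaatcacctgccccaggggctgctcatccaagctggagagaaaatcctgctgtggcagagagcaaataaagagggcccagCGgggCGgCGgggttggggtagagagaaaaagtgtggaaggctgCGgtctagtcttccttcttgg
Grb10 main start, chr11:12037371-12037670, - strand: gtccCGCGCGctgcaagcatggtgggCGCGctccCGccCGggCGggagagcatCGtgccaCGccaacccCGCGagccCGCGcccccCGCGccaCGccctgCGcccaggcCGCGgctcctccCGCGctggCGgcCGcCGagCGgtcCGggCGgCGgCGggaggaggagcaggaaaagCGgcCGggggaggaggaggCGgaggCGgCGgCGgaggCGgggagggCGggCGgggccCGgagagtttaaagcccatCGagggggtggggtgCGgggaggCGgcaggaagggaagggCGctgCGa
Grb10 downstream start, chr11:12027922-12028221, - strand: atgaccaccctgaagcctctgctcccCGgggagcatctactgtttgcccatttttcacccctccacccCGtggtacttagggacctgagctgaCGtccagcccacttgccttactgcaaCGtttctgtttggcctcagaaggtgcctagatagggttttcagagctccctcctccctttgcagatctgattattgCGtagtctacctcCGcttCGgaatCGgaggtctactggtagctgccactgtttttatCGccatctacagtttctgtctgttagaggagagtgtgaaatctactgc
Gnas main start, chr2:174329756-174330055, + strand: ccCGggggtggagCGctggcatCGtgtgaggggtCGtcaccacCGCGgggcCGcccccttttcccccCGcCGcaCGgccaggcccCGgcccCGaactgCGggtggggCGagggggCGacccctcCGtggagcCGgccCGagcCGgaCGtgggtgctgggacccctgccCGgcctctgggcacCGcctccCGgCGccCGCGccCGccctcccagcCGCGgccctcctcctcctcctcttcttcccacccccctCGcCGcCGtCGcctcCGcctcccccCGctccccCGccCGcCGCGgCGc
Gnas first start, chr2:174284070-174284369, + strand: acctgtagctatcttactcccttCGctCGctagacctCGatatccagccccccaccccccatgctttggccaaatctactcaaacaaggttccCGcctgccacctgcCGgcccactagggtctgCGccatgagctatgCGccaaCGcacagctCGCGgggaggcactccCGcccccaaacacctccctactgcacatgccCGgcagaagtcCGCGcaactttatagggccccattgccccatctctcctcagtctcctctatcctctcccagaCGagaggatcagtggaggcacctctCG
Peg3 start, chr7:6730370-6730669, - strand: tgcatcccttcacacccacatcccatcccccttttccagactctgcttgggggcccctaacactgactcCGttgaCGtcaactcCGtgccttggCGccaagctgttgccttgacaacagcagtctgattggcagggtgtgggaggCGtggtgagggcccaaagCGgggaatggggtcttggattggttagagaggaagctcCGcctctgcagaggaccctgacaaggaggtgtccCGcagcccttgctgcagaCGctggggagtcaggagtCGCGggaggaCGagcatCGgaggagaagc
Nnat start, chr2:157559828-157560127, + strand: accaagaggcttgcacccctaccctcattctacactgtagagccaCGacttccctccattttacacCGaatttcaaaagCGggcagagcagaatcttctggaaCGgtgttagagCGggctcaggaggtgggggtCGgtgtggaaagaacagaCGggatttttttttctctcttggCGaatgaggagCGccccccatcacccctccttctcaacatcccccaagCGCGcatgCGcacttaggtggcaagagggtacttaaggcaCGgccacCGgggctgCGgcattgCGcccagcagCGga

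The main Grb10 window holds 45 CpGs and its downstream window 9. The main Gnas window holds 40 and the first one 16, and the main Mest window holds 17 against 8 in the upstream one. The Peg3 window has 13 and the Nnat window 17. Over the 47 windows the median was 13 CpGs, beside 7 over all 32851 promoters of the table, and 34 of the 47 windows (72.3%) lay above that all-promoter median. The fewest were found at Rian with 0, at the internal start of Meg3 with 1, and at 1 start of Igf2, 1 of Snrpn, 1 of Ddc and the start of Slc22a18 with 2 each. The Peg3 and Usp29 windows face opposite ways and share 263 of their 300 bases. Some Mest windows also overlap, as do some Gnas windows, so the 47 are not independent of each other.

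The imprinted genes were widely detected in the limb and several were among its most abundant RNAs. Of the 36, 34 had at least 1 TPM in each library, beside 34.0% of all annotated genes and 61.4% of protein-coding genes; 30 of the 36 are protein-coding. The exceptions were Ascl2 and Usp29. Of the 34, 14 reached a mean of 100 TPM (41.2%), beside 10.1% of the genes detected at 1 TPM in each library. The median level of the 34 was 38.1 TPM, beside 16.3 TPM over all 14739 detected genes. A further 14 genes lay between 10 and 100 TPM and 6 between 1 and 10 TPM.

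**Figure D1:**
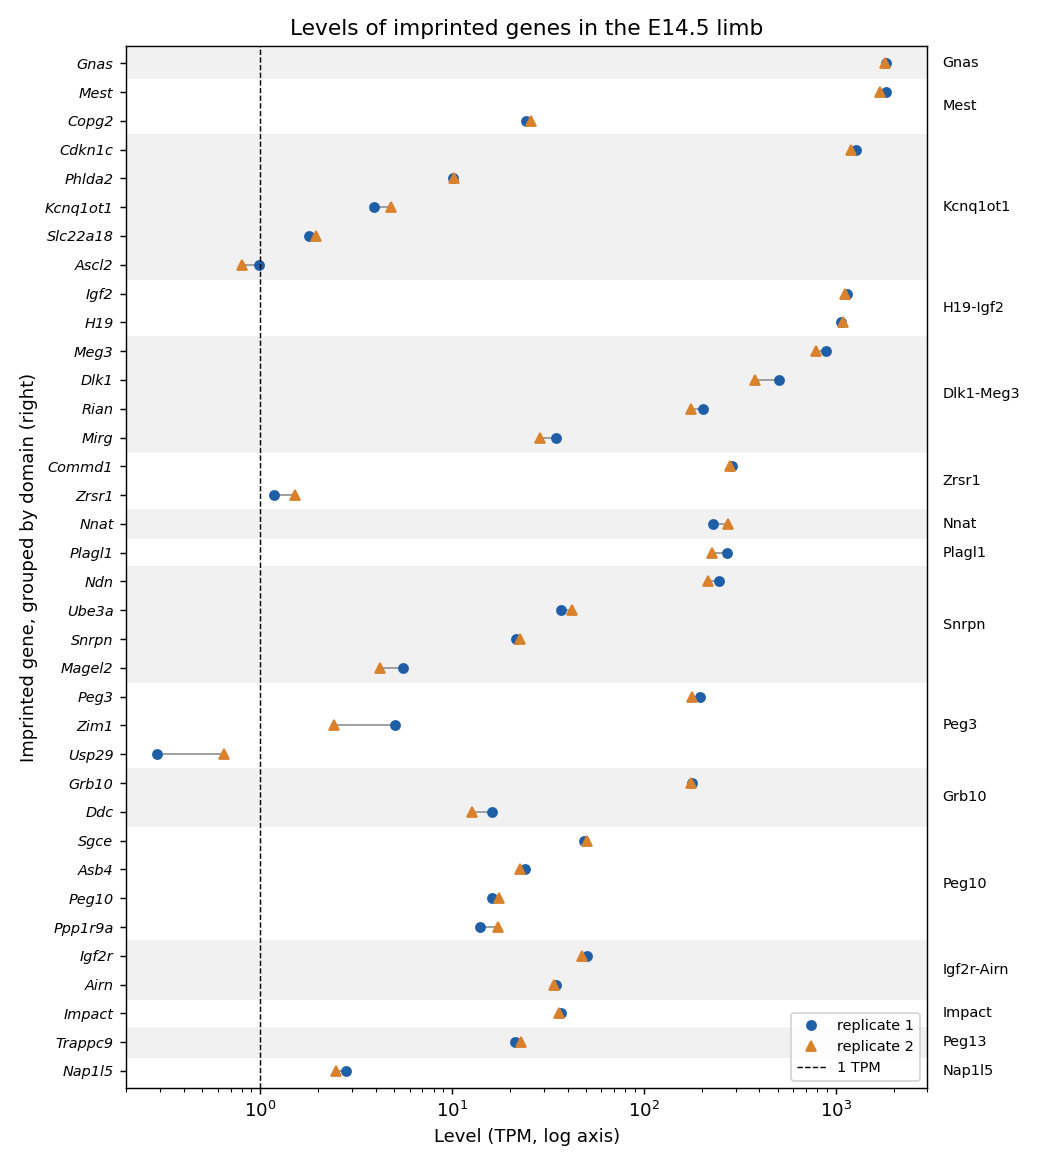
Level of each of the 36 imprinted genes in TPM (log axis) in replicate 1 (circles) and replicate 2 (triangles), grouped by domain, with a dashed line at 1 TPM; the domain called Peg13 holds Trappc9 alone. Levels run from below 1 TPM for Ascl2 and Usp29 to above 1000 TPM for Gnas, Mest, Cdkn1c, Igf2 and H19, and the libraries lie close together for most genes.

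A few genes carried most of this RNA. Gnas, Mest, Cdkn1c, Igf2 and H19 each exceeded 1000 TPM, a level that 113 genes reached in all, and together they held 68.3% of the summed level of the 36 genes. Their sum was 7121 TPM in replicate 1 and 6918 TPM in replicate 2. Gnas ranked 40 among the 14739 detected genes, Mest 42, Cdkn1c 83, Igf2 94 and H19 100. By allele, the 17 paternally expressed genes summed to 4420.1 ± 229 TPM, the 11 maternally expressed genes to 3461 ± 126 TPM and the 8 others to 2398 ± 9.83 TPM (SD, n = 2). The paternal sum lay above the maternal sum in both libraries, at 4582 against 3551 TPM in replicate 1 and 4258 against 3372 TPM in replicate 2. These sums rest on a few genes, because Mest and Igf2 made up most of the first and Cdkn1c, H19 and Meg3 most of the second.

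In the H19-Igf2 domain on chromosome 7, a growth factor and a noncoding RNA share enhancers and are expressed from opposite alleles. H19 (chr7:142575529-142578143, minus strand), a long noncoding RNA and the precursor of a microRNA, had 1061 TPM in replicate 1 and 1093 TPM in replicate 2. Igf2 (chr7:142650766-142666816, minus strand), the fetal insulin-like growth factor, had 1139.5 and 1112 TPM in the same order. The genes lie 72622 nt apart. H19 was the lower of the pair in each library, by little: the log2 ratio of H19 over Igf2 was −0.10 in replicate 1 and −0.02 in replicate 2. The sum of the pair was 2203 ± 3.67 TPM, the highest of the 16 domains.

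Igf2 RNA was spread over several transcript models. Igf2-208, a model of 958 nt that begins inside the gene and is not annotated as coding, held 48.9% of the gene's TPM in replicate 1 and 49.5% in replicate 2. The level of Igf2 beside H19, Igf2r and Igf1 therefore rests in large part on this model. The coding transcripts Igf2-203, Igf2-205 and Igf2-202 held 22.1, 13.3 and 12.98% in replicate 1 and 20.2, 14.8 and 12.7% in replicate 2. Of the 4 Igf2 starts with a window, the most distant from the gene's end (position 142666816, 2 CpGs) matched a transcript with 22.1% of the TPM in replicate 1 and 20.2% in replicate 2. The start at 142658804, with 24 CpGs, had no transcript whose 5′ end lay within 250 nt. H19 was divided among H19-205 (38.0 and 35.7%), H19-203 (30.9 and 33.3%) and H19-202 (31.1 and 31.1%). Shares between overlapping models rest on how the authors' quantification divided shared reads. In GENCODE M21, 62.8% of the exon length of Igf2 also belongs to a gene model on its own strand, Gm49394. Whether the authors' annotation, M4, holds that model was not checked.

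The receptor Igf2r and the other ligand, Igf1, were lower than Igf2. Igf2r (chr17:12682406-12769664, minus strand), the receptor that takes up and degrades the Igf2 protein, had 50.2 TPM in replicate 1 and 47.6 TPM in replicate 2. The log2 ratio of Igf2 over Igf2r was 4.52 ± 0.03, and that of Igf2 over Igf1, the ligand that dominates after birth, was 4.06 ± 0.09 (SD, n = 2). Igf1 itself had 71.2 and 63.7 TPM. Grb10 (chr11:11930508-12038683, minus strand), an adaptor that dampens insulin and growth factor receptor signalling, had 179 and 175.5 TPM. A further list held Igf1, receptors and binding proteins of the insulin-like growth factors, and RNA-binding protein genes. All 8 of its genes had at least 1 TPM in each library, beside 34.0% of annotated and 61.4% of protein-coding genes. The highest were the binding proteins Igfbp2 (264 and 303 TPM) and Igfbp5 (87.5 and 90.7 TPM) and the RNA-binding protein gene Igf2bp2 (69.9 and 76.4 TPM).

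Airn, the noncoding RNA that silences Igf2r on the paternal chromosome, runs antisense to it from a start inside the gene. Airn (chr17:12741311-12860136, plus strand) had 35.0 TPM in replicate 1 and 33.9 TPM in replicate 2, not far below Igf2r: the log2 ratio of Igf2r over Airn was 0.52 in replicate 1 and 0.49 in replicate 2. In reads the pair was much less even, with 9579 and 8701 expected counts for Igf2r against 634 and 603 for Airn, a count ratio of 15.1 and 14.4. The effective length of Airn in the table was 788 nt in replicate 1 and that of Igf2r 8297 nt, although Airn spans 118826 nt of the genome, so its TPM covers short annotated models only. No exon base of the pair overlaps, but the sources used here do not give the strand of the libraries. Reads from Igf2r introns therefore cannot be told apart from Airn where the genes overlap. The Igf2r window (34 CpGs) matched a transcript with 94.2% of the gene's TPM in replicate 1 and 96.8% in replicate 2, and the Airn window (3 CpGs) matched transcripts with 88.9 and 90.2%.

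The Kcnq1ot1 domain, also on chromosome 7, joined a very abundant gene with several low ones. Cdkn1c (chr7:143458339-143461050, minus strand), the cyclin-dependent kinase inhibitor p57, had 1271 TPM in replicate 1 and 1199 TPM in replicate 2. Kcnq1ot1 (chr7:143203458-143296549, minus strand), the long noncoding RNA that silences the domain on the paternal chromosome, had 3.92 and 4.80 TPM. On the scale of TPM the log2 ratio of Cdkn1c over Kcnq1ot1 was 8.12 ± 0.26 (SD, n = 2), but in expected counts Cdkn1c exceeded Kcnq1ot1 only 6.93-fold and 5.34-fold. The only Kcnq1ot1 transcript in the tables is 84395 nt long, and it gathered 7596 counts in replicate 1 and 8676 in replicate 2.

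Kcnq1ot1 stood above Kcnq1, the potassium channel gene it runs through in antisense, at 1.18 and 0.98 TPM: the log2 ratio of Kcnq1ot1 over Kcnq1 was 1.92 ± 0.38. Kcnq1 rested on 49.3 expected counts in replicate 1 and 46.5 in replicate 2, and in counts Kcnq1ot1 exceeded it 154-fold and 187-fold. The size of the log2 ratio depended on the processing, since it was 0.63 with posterior mean TPM and 1.36 with a pseudocount of 1. The sources used here do not give the strand of the libraries, so intron reads of Kcnq1 cannot be told apart from Kcnq1ot1. The remaining members of the domain act in the placenta or as transporters. Phlda2, a pleckstrin homology protein that restricts placental growth, had 10.05 and 10.3 TPM, and Slc22a18, an organic cation transporter family member, had 1.80 and 1.96 TPM. Ascl2, a transcription factor needed by the trophoblast, was barely measured, with 34 counts in replicate 1 (95% Poisson interval 23.5 to 47.5) and 26 in replicate 2 (17.0 to 38.1).

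The Dlk1-Meg3 domain on chromosome 12 was high on both its coding and its noncoding side. Dlk1 (chr12:109452823-109463336, plus strand), a membrane protein with epidermal growth factor repeats that restrains differentiation of precursor cells, had 503 TPM in replicate 1 and 377 TPM in replicate 2. Meg3 (chr12:109541001-109571726, plus strand), a maternally expressed noncoding RNA, had 889 and 789 TPM. Rian, the host of small nucleolar RNAs, had 202 and 176 TPM, and Mirg, a host of microRNAs, had 34.7 and 28.8 TPM.

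Along the noncoding stretch, which lies on a single strand, the level stepped down from Meg3 to Rian to Mirg in both libraries. The log2 ratio of Meg3 over Rian was 2.15 ± 0.02 and that of Rian over Mirg 2.57 ± 0.05, and Meg3 over Dlk1 was 0.94 ± 0.17 (SD, n = 2). The gaps between Meg3 and Rian and between Rian and Mirg are 32213 and 68047 nt. The small RNAs made from these hosts were outside the reach of the data: RNA above 200 nt was used, all 23 snoRNA genes between the start of Meg3 and the end of Mirg had an effective length of 0, and so did 48 of the 58 microRNA genes. The 58 microRNA genes had 1 count in all.

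Dlk1-205 was the leading Dlk1 transcript with 77.8% of the gene's TPM in replicate 1 and 82.6% in replicate 2. Dlk1-203 held 8.74 and 7.07% and Dlk1-209 held 7.48 and 3.32%. For Meg3 the transcripts starting at the window with 13 CpGs held 68.8 and 74.95%, and the internal start with 1 CpG matched 1.57 and 1.69%. Meg3-205 led with 58.4 and 62.8%, ahead of Meg3-211 with 18.4 and 15.7%, Meg3-207 with 10.4 and 12.2% and Meg3-202 with 7.14 and 5.74%.

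Mest (chr6:30723547-30748465, plus strand), a paternally expressed gene for a hydrolase-like protein of mesoderm, had 1823 TPM in replicate 1 and 1701 TPM in replicate 2. Nearly all of it came from the window with 17 CpGs printed above: the transcript Mest-211 that starts there held 95.3 and 95.4% of the gene's TPM. A start 3 bases downstream matched a further 2.93 and 2.71%, and the upstream start with 8 CpGs matched 0.01 and 0.03%. Copg2, a coatomer subunit gene that converges on Mest from the other side, had 24.4 and 25.7 TPM. The log2 ratio of Mest over Copg2 was 6.13 ± 0.12 (SD, n = 2). The genes overlap by 912 nt, 23.1% of Mest exon length lies opposite Copg2 exons, and both genes have counts that are not whole, so reads were divided between rows.

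Gnas (chr2:174284320-174346744, plus strand), which encodes the alpha subunit of the stimulatory G protein and several other proteins from other starts, was the highest of all 36 genes with 1827 TPM in replicate 1 and 1813 TPM in replicate 2. The main start, with 40 CpGs, matched transcripts with 88.2% of the gene's TPM in replicate 1 and 89.4% in replicate 2. The first start of the locus, from which the maternally expressed Nesp transcript is known to begin, matched 7.26 and 5.48%. The pair of starts between them, with 27 and 28 CpGs, matched 2.20 and 0.10% in replicate 1 and 2.48 and 0.11% in replicate 2. Gnas-208 led with 73.6 and 75.2%, and Gnas-206, Gnas-211 and Gnas-207 held 8.08, 7.10 and 6.47% in replicate 1 and 7.78, 5.29 and 6.41% in replicate 2. Of the exon length of Gnas, 22.0% lies opposite other genes, among them the antisense RNA Nespas.

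Grb10 also has starts that differ in imprinting, with paternal expression known from neurons and maternal expression elsewhere. The transcript Grb10-201, which begins at the window with 45 CpGs, held 65.0% of the TPM of Grb10 in replicate 1 and 64.9% in replicate 2. The downstream window with 9 CpGs matched 0.49% in replicate 1 and 0% in replicate 2. A model of 430 nt, Grb10-207, took 32.4 and 33.2%. It begins at position 12026732, downstream of both windows, and matched neither. The windows therefore do not cover the start of this part of the TPM. The neighbouring gene Ddc, the enzyme that makes dopamine and serotonin, had 16.1 and 12.8 TPM, and the log2 ratio of Grb10 over Ddc was 3.62 ± 0.22 (SD, n = 2).

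**Figure D2:**
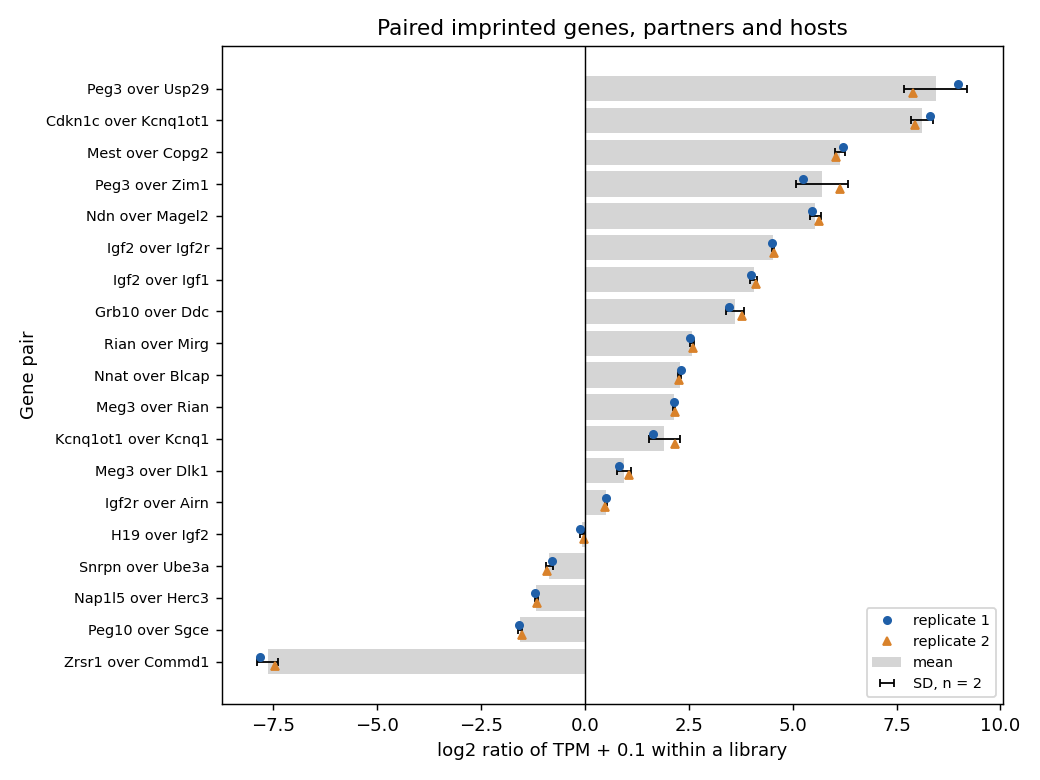
log2 ratio of TPM + 0.1 within each library for 19 gene pairs, with replicate 1 as circles, replicate 2 as triangles, bars at the mean and whiskers of 1 SD (n = 2). The mean is above 0 in 14 pairs, H19 over Igf2 sits nearest to 0 at −0.06, the highest means are those of Peg3 over Usp29 at 8.44 and Cdkn1c over Kcnq1ot1 at 8.12, whose order differs between the libraries, and the lowest is that of Zrsr1 over Commd1 at −7.63.

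Pairs of neighbours often stood far apart in level. Of the 17 pairs that lie on the same chromosome, the gene named first was higher in 12, and every pair kept its direction in both libraries. Which gene is named first was a choice, so the count of 12 has no meaning of its own. Peg3 (chr7:6703892-6730431, minus strand), a paternally expressed zinc finger protein gene, had 197 TPM in replicate 1 and 179 TPM in replicate 2. Usp29, the ubiquitin protease gene that starts back to back with Peg3 and is expressed from the same allele, had 17 counts in replicate 1 (95% Poisson interval 9.90 to 27.2) and 35 in replicate 2 (24.4 to 48.7). That is 0.29 and 0.65 TPM, and the log2 ratio of Peg3 over Usp29 was 8.44 ± 0.76 but 7.01 with a pseudocount of 1. The only Usp29 transcript in the tables is 2610 nt long and begins at position 6961160, far from the shared promoter; where the Usp29 reads began was not tested. Zim1, a maternally expressed zinc finger protein gene 7441 nt from Peg3, had 5.04 and 2.42 TPM, and the log2 ratio of Peg3 over Zim1 was 5.70 ± 0.63 (SD, n = 2).

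On proximal chromosome 6, Peg10, a gene derived from a retrotransposon and required in the placenta, shares a promoter region with Sgce across a gap of 98 nt. Peg10 had 16.2 TPM in replicate 1 and 17.5 TPM in replicate 2, and Sgce, the epsilon subunit of the sarcoglycan complex, had 48.7 and 50.2 TPM. Sgce was the higher of the divergent pair in both libraries, with a log2 ratio of Peg10 over Sgce of −1.55 ± 0.05. In counts the pair was close, with 1596 and 1368 for Peg10 and 1672 and 1617 for Sgce. The Peg10 models disagreed between libraries, since Peg10-202 held 41.5% in replicate 1 and 21.03% in replicate 2, Peg10-203 held 20.6 and 31.9%, and a model with no entry in the reference annotation held 37.9 and 47.1%. Nearby, Asb4, a substrate adaptor of a ubiquitin ligase, had 24.1 and 22.5 TPM, and Ppp1r9a, the actin-binding neurabin, had 14.0 and 17.3 TPM.

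In the domain linked in people to Prader-Willi and Angelman syndromes, Ndn stood out. Ndn (chr7:62346569-62350262, plus strand), the gene for the MAGE protein necdin, had 247 TPM in replicate 1 and 214 TPM in replicate 2. Magel2, a MAGE gene 26747 nt away, had 5.52 and 4.20 TPM, a log2 ratio of Ndn over Magel2 of 5.55 ± 0.13 (SD, n = 2). Snrpn, a spliceosomal protein gene and a paternal marker of the domain, had 21.4 and 22.5 TPM. Ube3a, the ubiquitin ligase gene that is maternally expressed in neurons and from both alleles in most other cells, had 37.1 and 42.4 TPM.

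The log2 ratio of Snrpn over Ube3a was −0.85 ± 0.09. Of the exon length of Ube3a, 27.3% lies opposite other models, the antisense RNA gene Snhg14 among them, and 27.3% of that of Snrpn is shared with models on its own strand such as Snurf. Of the 4 Snrpn windows, the start at 60005199 (7 CpGs) matched 99.1% of the TPM in replicate 1 and 100% in replicate 2. Of 7 neuronal markers, 3 reached 1 TPM in both libraries, beside 34.0% of annotated and 61.4% of protein-coding genes. They were Stmn2 (6.96 and 5.62 TPM), Tubb3 (2.61 and 2.84 TPM) and Elavl4 (2.10 and 1.81 TPM). The list summed to 13.04 TPM in replicate 1 and 12.5 TPM in replicate 2. Its median level was 1.18 TPM, and Neurod1 was at 0.

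Some imprinted genes lie inside the intron of another gene, and here nested gene and host were far from equal. Nnat (chr2:157560078-157562522, plus strand), a small membrane protein gene, had 230.1 TPM in replicate 1 and 273 TPM in replicate 2 and exceeded its host Blcap, at 46.4 and 57.0 TPM, with a log2 ratio of Nnat over Blcap of 2.28 ± 0.03. The Nnat window printed above matched transcripts with 99.3 and 99.5% of its TPM. The order was the other way for the next pairs. Zrsr1, a splicing factor gene, had 1.18 and 1.51 TPM against 286 and 282 TPM for its host Commd1, which acts in copper handling, and the log2 ratio of Zrsr1 over Commd1 was −7.63 ± 0.25, or −6.93 with a pseudocount of 1. Nap1l5, of the nucleosome assembly family, had 2.81 and 2.47 TPM against 6.56 and 5.59 TPM for its host Herc3, a log2 ratio of −1.17 ± 0.03.

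Plagl1, Impact and Trappc9 are the only measured members of their domains here. Plagl1 (chr10:13060504-13131694, plus strand), a zinc finger transcription factor gene known to regulate other imprinted genes, had 271 TPM in replicate 1 and 227 TPM in replicate 2. The start of Plagl1 with 26 CpGs matched 98.0 and 98.1% of its TPM, and Plagl1-202 was the only transcript at 5% or more, with 75.3 and 74.4%. Impact, an inhibitor of a stress kinase pathway, had 36.9 and 35.9 TPM. Trappc9, a subunit of a vesicle tethering complex, had 21.4 and 22.8 TPM.

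Most genes with several models had the same leading transcript in both libraries. Of the 27 genes with at least 2 transcripts in the tables, 25 kept the same leader, with Peg10 and Commd1 as the exceptions, and in 17 the leader held over 50% in both libraries. The median share of the leader was 73.6% in replicate 1 and 71.9% in replicate 2. Single transcripts were dominant in Igf2r (Igf2r-201, 94.2 and 96.8%), Peg3 (Peg3-201, 92.4 and 90.1%), Asb4 (Asb4-201, 91.8 and 91.3%) and Cdkn1c (Cdkn1c-201, 82.6 and 84.3%). The Sgce leader Sgce-205 moved more, holding 49.3% in replicate 1 and 66.6% in replicate 2. In Commd1 the lead passed between Commd1-202, with 39.3 and 36.1%, and Commd1-203, with 36.9 and 39.4%.

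**Figure D3:**
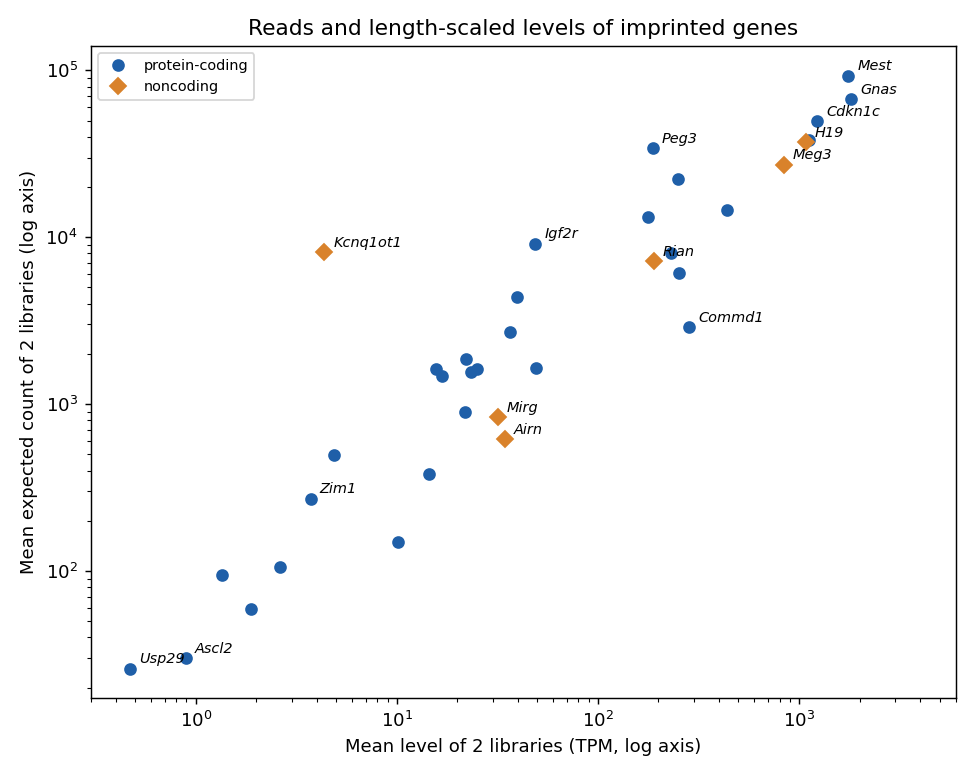
Mean expected count against mean level in TPM (both log axes) for each of the 36 genes, with protein-coding genes as circles and noncoding genes as diamonds. Kcnq1ot1 lies far above the other genes of its level, with 7596 and 8676 counts at a mean of 4.36 TPM, and Commd1 lies below those of its level.

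The order of the genes depends on the scale, because TPM divides by length. The 6 noncoding genes ran from 1077 ± 23.0 TPM for H19 and 839 ± 70.7 TPM for Meg3 through 189 ± 18.3 TPM for Rian, 34.5 ± 0.735 TPM for Airn and 31.8 ± 4.19 TPM for Mirg to 4.36 ± 0.622 TPM for Kcnq1ot1. In counts Kcnq1ot1 stood above Rian in replicate 2, at 8676 against 6523, and just below it in replicate 1, at 7596 against 7847. Counts of 27 of the 36 genes were whole in both libraries within 0.02. The other 9 (Igf2, Kcnq1ot1, Meg3, Mest, Copg2, Gnas, Snrpn, Zrsr1 and Commd1) had reads divided with another row, so their values are less certain.

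Most of these genes differed by less than 1.5-fold between the libraries. Of the 34 that averaged at least 1 TPM, 1 differed by 1.5-fold or more on log2(TPM + 0.1), a scale that understates the change of low genes. This is 2.94% of them, beside 6.96% of 15307 genes, a share at which 34 genes would hold few calls. The gene was Zim1, with 2.42 TPM and 168 counts in replicate 2 against 5.04 TPM and 375 counts in replicate 1, a log2 ratio of −1.03. In this direction 2.95% of all genes passed, and 4.00% in the other. With a single library on each side the difference has no replicate check, and no p-value is given. It also cannot be told apart from the difference in sex-linked RNA between the libraries. Zim1 was also the only one of the 34 outside the range from the 5th to the 95th percentile of all genes, −0.43 to 0.52.

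**Figure D4:**
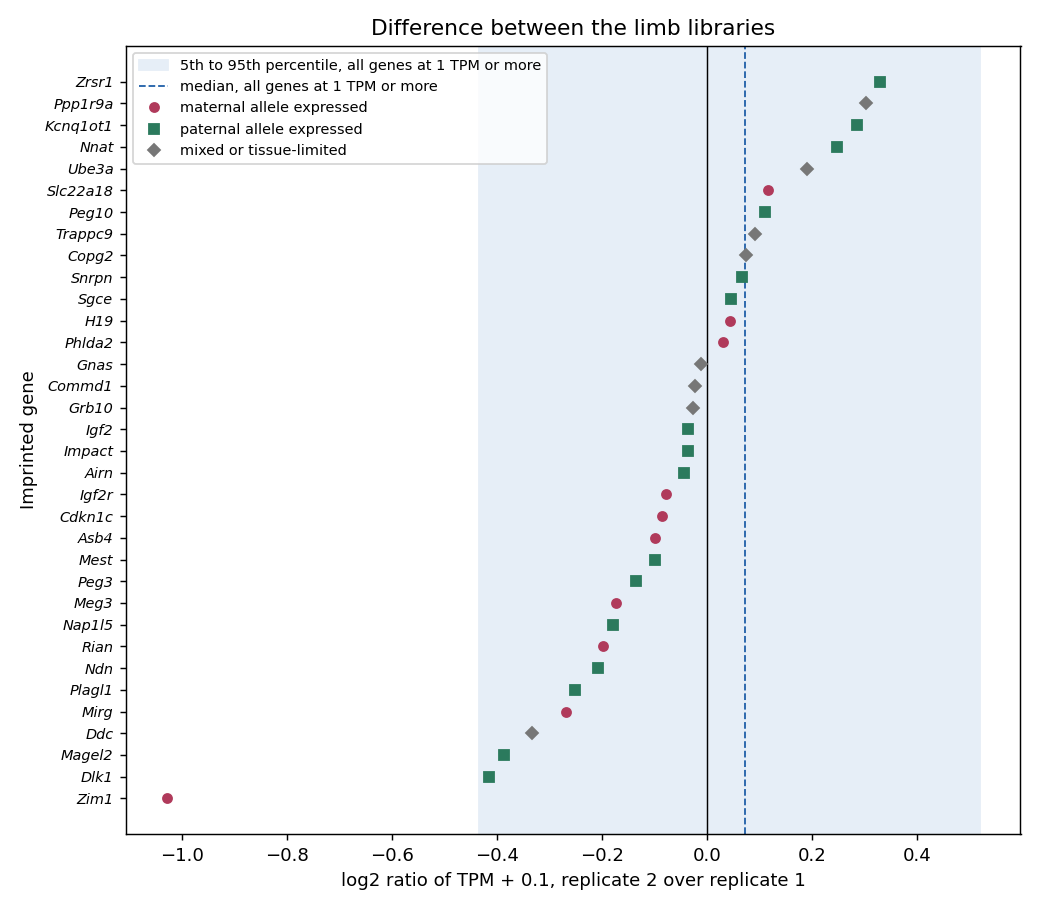
log2 ratio of TPM + 0.1 in replicate 2 over replicate 1 for the 34 imprinted genes that averaged at least 1 TPM, marked by the allele known to be expressed, with the 5th to 95th percentile of all genes shaded and their median dashed. Every gene but Zim1 at −1.03 lies in the shaded range, and 25 of the 34 lie below the dashed median of 0.07.

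By deposited TPM, 21 of the 34 genes were lower in replicate 2 and 13 were higher, with a median log2 ratio of −0.04. The median over all genes was 0.07, and 34.3% of all genes were lower. Scaling counts by edgeR's TMM factors or DESeq2's size factors brought the all-gene median to −0.00 and left 27 lower and 7 higher. Of all genes, 50.3% were lower with TMM and 50.7% with DESeq2. H19, Phlda2, Copg2, Peg10, Sgce and Snrpn changed sign under both. The genes of the Dlk1-Meg3 domain were all lower in replicate 2 under each of these scalings, with log2 ratios in TPM of −0.42 for Dlk1, −0.27 for Mirg, −0.20 for Rian and −0.17 for Meg3. Also lower under each were Magel2 at −0.39, Ddc at −0.33, Plagl1 at −0.25 and Ndn at −0.21. Zrsr1 at 0.33, Ppp1r9a at 0.30, Kcnq1ot1 at 0.29 and Nnat at 0.25 were higher under each.

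Marker lists of limb cell types also moved between the libraries. All 12 muscle genes were lower in replicate 2, with a median log2 ratio of −0.54 and summed levels of 2457 TPM in replicate 2 against 3619 TPM in replicate 1. Red blood cell genes were lower in 9 of 10, at 18432 against 27105 TPM, and epidermal genes in 8 of 9, at 1498 against 1756 TPM. All 13 limb patterning genes were higher, with a median of 0.40 and sums of 684 against 531 TPM. The 10 cartilage genes were split evenly around 0, with a median of −0.02. These counts are on deposited TPM, where the median over all genes was 0.07 and 34.3% of all genes were lower. Some of the 5 higher cartilage genes, Col2a1 at 0.01 among them, lay below that all-gene median. The part of these shifts in the differences of the imprinted genes was not tested.

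Other imprinted genes, from a list of 36, were also looked up. Of the 35 with a row, 27 reached 1 TPM in both libraries, beside 34.0% of annotated and 61.4% of protein-coding genes, and 7 were below it in both. The highest were the tetraspanin gene Cd81 (507 TPM in replicate 1 and 534 TPM in replicate 2), the peptidase gene H13 (116 and 117 TPM) and the amino acid transporter gene Slc38a4 (88.3 and 83.2 TPM). None of the 28 that averaged at least 1 TPM passed 1.5-fold between libraries, beside the 6.96% of all genes given above, and their median log2 ratio was 0.07.

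Genes for factors that set or keep imprints were listed as well. Of 14 listed genes, 12 reached 1 TPM in both libraries, beside 34.0% of annotated and 61.4% of protein-coding genes. None of these 12 passed 1.5-fold between the libraries, beside 6.96% of all genes, a share at which a list this short would hold few calls. Trim28, the corepressor recruited to methylated control regions, had 322 TPM in replicate 1 and 358 TPM in replicate 2, and the insulator protein gene Ctcf had 72.7 and 79.5 TPM. Uhrf1, which brings the maintenance methyltransferase to newly copied DNA, had 72.4 and 68.5 TPM. The genes below 1 TPM were Dppa3, which protects imprints in the early embryo, with 1 count in replicate 1 and 2 in replicate 2, and Dnmt3l, a cofactor of imprint setting in germ cells, with 2 counts and 1 count. This pair was named after its values were seen.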

How the data were processed

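Total RNA sequencing of limb at embryonic day 14.5 was analysed in 2 libraries of 1 group, each with a gene and a transcript table. Per the notes filed with each sample, values came from transcriptome alignments on mm10 with annotation M4; the sources used here do not name the aligner, the quantifier or the library strand. Expected counts were deposited by the authors as estimates of reads, not always whole. The deposited TPM values sum to 1000000 per library, spike-ins and mitochondrial genes included; posterior mean TPM served as an alternative. The authors deposited each transcript's percent of its gene's TPM, and lengths in nt. The FPKM values, the posterior counts and the bounds of the credibility intervals (a score here) deposited by the authors were not used.

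Ensembl identifiers were looked up in GENCODE M21 (GRCm38, the assembly of mm10), which holds 42462 of the 43346 and lacks 884. Exon overlaps between genes were also taken from M21, although the deposited values rest on M4. Promoters came from RefSeq (GRCm38.p6). A transcript was tied to its nearest RefSeq start if its 5′ end lay within 250 nt. Ratios used log2(TPM + 0.1). Library differences were called at 1.5-fold for genes averaging at least 1 TPM, after the step had been tested on simulated data. For the scaling alternatives, expected counts were rounded to whole numbers. Poisson intervals (95%) cover counting error only, since no molecular identifiers are recorded. With n = 2 no test was made. Python 3.11.15 (numpy 2.4.6, pandas 2.3.3, scipy 1.17.1, matplotlib 3.10.9) and R 4.3.3 (edgeR 4.0.16, DESeq2 1.42.0) were used.

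The genes, lists, pairs and alternatives were chosen with earlier results of these data known. All imprinted genes on the list and the partners in the pairs were named. Of each other list, the 3 genes of highest level and all sex-linked genes could be named. Leading transcripts were named for genes of 10 TPM or more, and all transcripts of 5% or more for Gnas, Igf2, Grb10, Mest, Plagl1, Peg10, Dlk1 and Meg3. Overlapping genes, Neurod1, H19-202 and H19-203 were named after their values were seen. Alternatives were other TPM minimums and pseudocounts, a 2-fold threshold, TMM and DESeq2 scaling, posterior mean TPM, TPM rescaled to annotated nuclear genes, and each library alone.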

Additional observations from a re-analysis of the deposited data

How the results depend on the processing

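Rescaling TPM to annotated nuclear genes moved the median level of the 36 genes to 41.4 TPM, against 35.4 TPM as deposited, and the sums to 4049 TPM for maternally expressed, 5171 TPM for paternally expressed and 2805 TPM for the other genes. It moved the levels of 31 genes by more than 1 SD and left 5 within it, since it raises all levels alike. With posterior mean TPM the sum of the other genes was 2341 TPM, against 2398 TPM, and 8 levels moved by more than 1 SD. The number of genes past 1.5-fold between libraries was 1, became 2 with no filter on low values (13.7% of all genes) and 0 with a mean of 5 TPM or more (2.09%), because Usp29 entered and Zim1 left. It stayed at 1 with TMM, DESeq2 size factors, a pseudocount of 1, posterior mean TPM and a 2-fold threshold. Detection was 35 genes at 0.5 TPM, 28 at 5 TPM and 36 above 0.

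With each library alone, detection ranged from 34 to 34, the maternal sum from 3372 to 3551 TPM, the paternal sum from 4258 to 4582 TPM, the sum of the other genes from 2391 to 2405 TPM, the pairs above 0 from 14 to 14 and the median share of the leading transcript from 71.9 to 73.6%. Of the 19 pair ratios, 7 moved by more than 1 SD with a pseudocount of 1, 3 with posterior mean TPM and 0 with a pseudocount of 0.01, and none changed sign. No paired analysis was possible because all samples belong to 1 group. Ascl2 and Usp29, with under 40 counts per library, are limited by depth.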
